A study of Mus musculus with 6 samples.

Results

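The autophagy and lysosome genes comprise 41 of the 55416 genes in the count table, chosen by symbol from the machinery that builds autophagosomes, marks their cargo and digests it in lysosomes. All 41 were found and all 41 passed the filter on low counts. Their transcripts were measured by RNA sequencing of keratinocytes, the principal cells of the epidermis, cultured directly from C57BL/6J:129 hybrid pups aged 1 to 2 days that were either wild type or knockout for Cebpb, the gene of the transcription factor C/EBPβ. The cells were held in 0.05 mM calcium with human EGF and bovine pituitary extract, irradiated 5 days after plating (UVB lamp of 312 nm, dose 10 mJ/cm2) and harvested 8 h later. There were 3 wild type libraries (replicates 1, 2 and 3) and 3 knockout libraries (replicates 4, 5 and 6). Every library was irradiated, so differences are between genotypes after UVB, and the response to UVB itself was not measured.

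Autophagy delivers cytoplasm, damaged organelles and protein aggregates to the lysosome. The ULK1 kinase complex starts the process, a PI3-kinase complex marks the membrane from which the autophagosome grows, and 2 ubiquitin-like conjugation steps attach ATG8 proteins (the LC3 and GABARAP families) to that membrane, where they bind cargo receptors such as p62. The finished autophagosome fuses with the lysosome, an acidic organelle whose hydrolases break down its contents, and the transcription factors TFEB, TFE3 and MITF bind an E-box motif before many lysosomal genes. In keratinocytes, lysosomal proteases also take part in terminal differentiation.

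The most abundant lysosomal protease transcripts were lower in knockout cells, whereas those of the less abundant hydrolases Ctsz and Neu1 and of the initiating kinase Ulk1 were higher. Of the 41 genes, 4 rose (Ulk1, Optn, Ctsz and Neu1), 19 fell and 18 were not called by edgeR's quasi-likelihood test at a Benjamini-Hochberg adjusted p under 0.05. Among all 17659 genes tested, 48.6% were called, 24.8% higher and 23.7% lower, against 56.1% of these 41, with 9.76% higher and 46.3% lower. The median log2 fold change, knockout over wild type, was -0.11 here and 0.01 over all genes. Most changes were small. Ctsz rose and Ctsl and Mitf fell by 1 log2 unit or more, which 8.56% of all genes did upward and 5.94% downward, and the median size of change was 0.33, against 0.38 over all genes. The groups of libraries did not overlap in 4 genes that were higher and 20 that were lower, and among all tested genes 56.4% did not overlap, 28.7% higher and 27.6% lower. Summed over the 41 genes, CPM (read counts normalised to a common library size, here scaled by TMM, the trimmed mean of M-values of edgeR) came to 11416 ± 371 in wild type and 8040 ± 262 in knockout cells (SD, n = 3 each). The hydrolases made up 55.1% ± 0.875 of that sum in wild type and 43.1% ± 0.349 in knockout cells.

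These directions depend in part on how libraries are scaled. TMM centres the bulk of genes near 0, whereas scaling by library totals moves the median of all genes to 0.21 log2 units. With totals, 10 of the 41 rose and 14 fell, and their median was 0.08, while 36.7% of all genes rose and 13.9% fell. The 4 rises held under both scalings, and so did 14 of the 19 falls. The falls of Atg101, Atg3, Map1lc3b, Lamp1 and Lamp2 were not called with totals, and Atg2a, Atg5, Atg10, Gabarapl1, Sqstm1 and Tfe3 were then called higher. Under each of 14 alternatives that tested them, 18 genes (4 higher and 14 lower) kept their call.

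**Figure D1:**
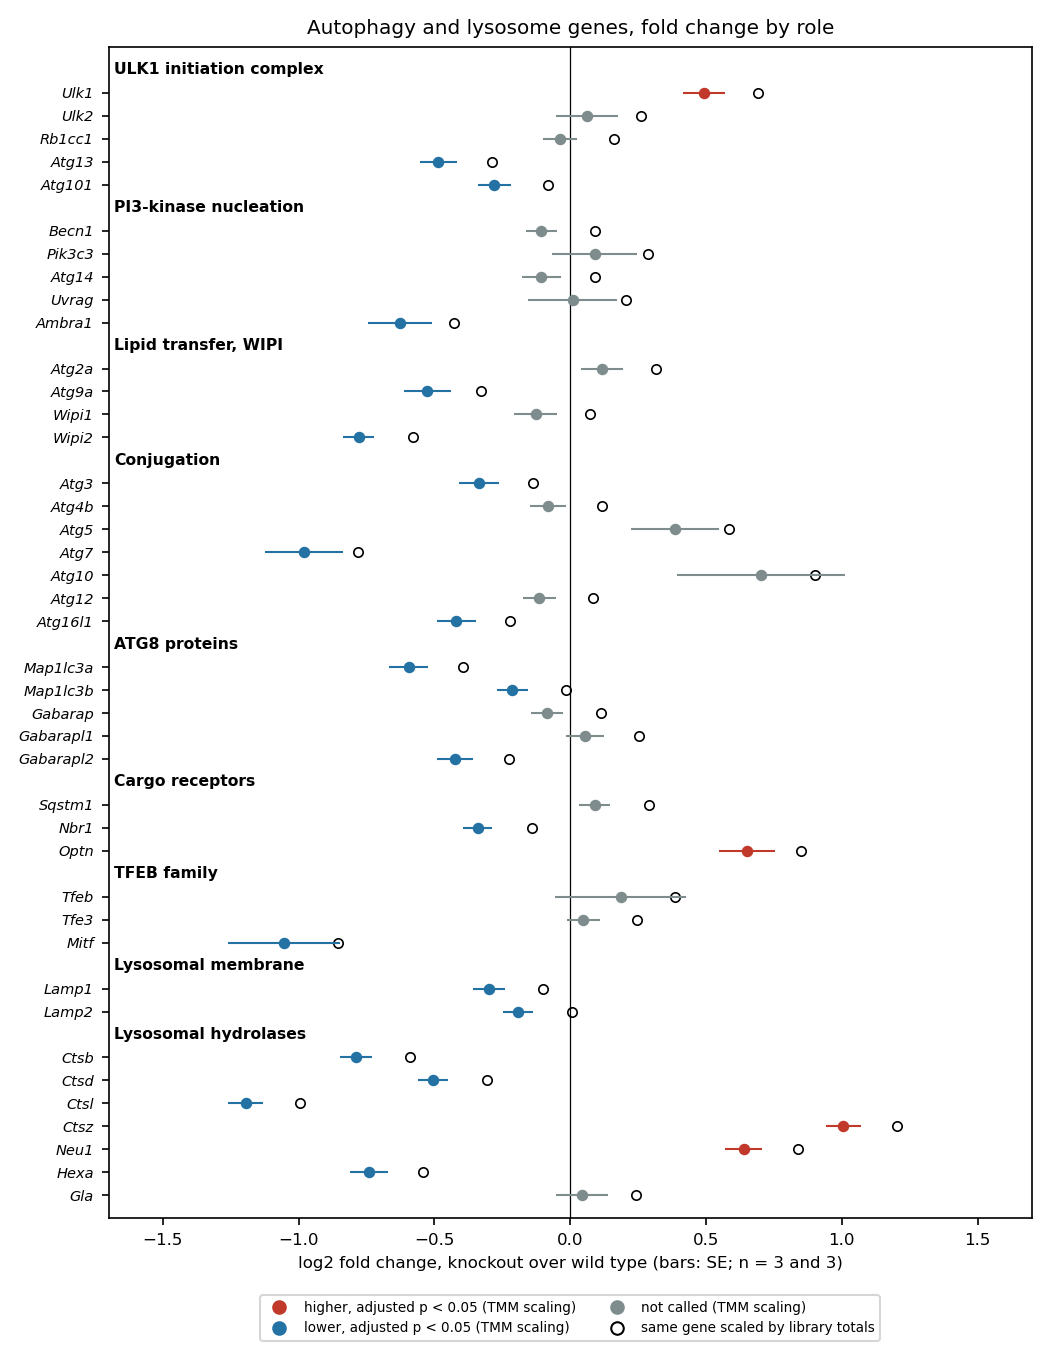
Log2 fold change of each of the 41 genes, knockout over wild type, grouped by role, with TMM scaling (filled points, bars show SE, n = 3 and 3) and with library totals (open circles). Ctsl at -1.19 and Mitf at -1.05 lie lowest and Ctsz at 1.01 highest, and the open circles lie to the right of the filled points throughout.

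Library totals ranged from 107757415 to 122797031 counts in wild type and from 81256192 to 92987497 in knockout cells. The mitochondrial share of counts was higher in every knockout library (1.79% to 2.17%) than in any wild type library (1.47% to 1.64%). The deleted gene, Cebpb (ENSMUSG00000056501), fell from 145 ± 21.9 to 0.942 ± 0.143 CPM (SD, n = 3 each), -7.26 on the log2 scale. Summed Y-linked transcripts were 60.7 to 68.1 CPM in wild type and 0.101 to 0.158 CPM in knockout libraries, and Xist was 387 to 415 CPM in wild type and 567 to 604 CPM in knockout libraries. The wild type libraries thus held RNA of both sexes and the knockout libraries almost no Y-linked RNA, so sex of origin and genotype cannot be told apart. The X-linked genes among the 41 are Tfe3, Lamp2 and Gla. Keratinocyte markers were abundant in all libraries, and their sum was 43034 to 48131 CPM in wild type and 25829 to 26814 CPM in knockout, with 8 of 10 called lower, Itgb4 higher and Cdh1 not called. Markers of pigment cells were also present, with 11 genes summing to 710.4 to 799 CPM and 619 to 703 CPM, of which 6 were called lower and 5 were not called. The 14 markers of Langerhans cells and macrophages summed to 5.54 to 8.10 CPM in wild type and 2.85 to 3.57 CPM in knockout libraries, with 5 lower, 1 higher (Cd74), 1 not called and 7 too low to test, among them Ptprc and Cd207 at or near 0. The part of these differences, mitochondrial share and sex included, in the results that follow was not tested. In bulk RNA, fewer cells of a type and less RNA per cell cannot be told apart.

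Among the genes of the initiation complex, Ulk1 rose, Atg13 and Atg101 fell, and Ulk2 and Rb1cc1 were not called. Ulk1 (ENSMUSG00000029512), which encodes the kinase that integrates signals from mTORC1 and AMPK, measured 213, 195 and 169 CPM in the wild type libraries and 261, 294 and 257 CPM in the knockout libraries. All knockout libraries lay above all wild type libraries, and Ulk1 rose by 0.49 ± 0.08 log2 units (SE, edgeR adjusted p = 7.14e-05). Its paralog Ulk2 was scarcer, at 2.11 ± 0.0332 CPM per kb of exon in wild type against 36.8 ± 4.27 for Ulk1, and was not called (log2 fold change 0.06 ± 0.11). Atg13, the adaptor that links the kinase to the rest of the complex, measured 67.7, 71.0 and 64.9 CPM in the wild type libraries and 51.4, 47.5 and 46.5 CPM in the knockout libraries. These groups did not overlap, and Atg13 fell by 0.49 ± 0.07 log2 units. Atg101, which stabilises ATG13, fell by 0.28 ± 0.06 with TMM, and with library totals its value was -0.08. Rb1cc1, the gene of the scaffold FIP200, overlapped between genotypes (log2 fold change -0.04 ± 0.06).

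Most genes of the PI3-kinase complex showed no call. Becn1, the gene of the Beclin 1 scaffold, measured 171, 155 and 169 CPM in the wild type libraries and 150.1, 154 and 155 CPM in the knockout libraries, and its log2 fold change was -0.11 ± 0.06 (edgeR adjusted p = 0.137). All 3 knockout libraries were below all 3 wild type libraries, but the highest of them (154.7 CPM) came within about 1 CPM of the lowest wild type library (155.4 CPM). Pik3c3, the lipid kinase gene (0.09 ± 0.16), Atg14, which directs the complex to autophagy (-0.11 ± 0.07), and Uvrag, a subunit of the endosomal form (0.01 ± 0.16), overlapped between genotypes. Pik3c3 and Uvrag were also low, at 6.87 ± 1.40 and 3.40 ± 0.136 CPM in wild type (SD, n = 3). Ambra1, a Beclin 1 binding protein that promotes autophagy, was the exception. It measured 11.3, 10.9 and 10.00 CPM in the wild type libraries and 7.65, 6.12 and 7.05 CPM in the knockout libraries, without overlap, and fell by 0.63 ± 0.12 log2 units.

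Of the genes that supply and mark the growing membrane, 2 of 4 were called, both lower (50%, where 48.6% of all genes were called). Wipi2, which reads the lipid made by the PI3-kinase and recruits ATG16L1, measured 247, 225 and 227 CPM in the wild type libraries and 136, 139 and 132 CPM in the knockout libraries. The gap between genotypes was several times the spread within them, and Wipi2 fell by 0.78 ± 0.06 log2 units (edgeR adjusted p = 1.55e-08). Atg9a, the gene of a lipid scramblase carried on vesicles, fell by 0.53 ± 0.09, from 30.5 ± 2.13 to 21.2 ± 1.57 CPM (SD, n = 3 each). Wipi1, a relative of Wipi2, was not called (-0.13 ± 0.08), and neither was the lipid transfer gene Atg2a (0.12 ± 0.08), which reached 0.32 and a call with library totals.

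In the conjugation machinery 3 of 7 genes were called, all lower (42.9%, where 48.6% of all genes were called), and the median was -0.11. Atg7, the E1-like enzyme gene that serves both conjugation steps, showed the largest fall. It measured 18.3, 13.1 and 13.5 CPM in the wild type libraries and 6.29, 7.95 and 8.54 CPM in the knockout libraries. Wild type replicate 1 was the highest, and the groups did not overlap (log2 fold change -0.98 ± 0.14, edgeR adjusted p = 3.01e-05). Atg16l1, which places the ATG12-ATG5 conjugate on the membrane, fell by 0.42 ± 0.07, from 67.8 ± 4.66 to 50.7 ± 2.94 CPM. Atg3, the E2-like enzyme of ATG8 lipidation, fell by 0.33 ± 0.07, a call absent with library totals (-0.14). Atg12, the ubiquitin-like protein itself, was not called (-0.11 ± 0.06), nor was the ATG8 protease gene Atg4b (-0.08 ± 0.07).

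Atg5, the acceptor of ATG12, measured 5.18, 7.96 and 5.84 CPM in the wild type libraries and 9.86, 7.87 and 7.07 CPM in the knockout libraries, with wild type replicate 2 above 2 of the knockout libraries. It was not called (0.39 ± 0.16, edgeR adjusted p = 0.0616), but it was without wild type replicate 2 (0.59), without knockout replicate 6 (0.49), with no filter on low counts (0.38), with a minimum mean of 1 CPM (0.40), with the DESeq2 test (0.37) and with library totals (0.58). Atg10, the E2-like enzyme of that step, was the scarcest of the conjugation genes at 0.628 ± 0.226 CPM in wild type. It was not called (0.70 ± 0.31), whereas without wild type replicate 1 it was (1.01).

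The ATG8 genes, whose products coat the autophagosome, differed among themselves. Map1lc3a measured 125, 108 and 111 CPM in the wild type libraries and 71.8, 81.6 and 74.7 CPM in the knockout libraries, and fell by 0.59 ± 0.07 log2 units (edgeR adjusted p = 3.54e-06) without overlap. Gabarapl2, also called GATE-16, fell by 0.42 ± 0.07, from 92.7 ± 6.48 to 69.1 ± 3.42 CPM. Map1lc3b, the LC3 protein most often used to follow autophagy, measured 379.7, 357 and 356 CPM in the wild type libraries and 297, 319 and 327 CPM in the knockout libraries, a fall of 0.21 that was -0.01 and not called with library totals. Gabarap (-0.09 ± 0.06) and Gabarapl1 (0.05 ± 0.07) overlapped between genotypes, and Gabarapl1 was called higher with totals (0.25). Per kb of exon, Gabarap was the most abundant of the family in both genotypes, with 48.4% ± 0.680 of the summed ATG8 level in wild type and 53.2% ± 0.297 in knockout cells. The share of Map1lc3a was 20.6% ± 0.835 in wild type and 16.0% ± 0.723 in knockout cells, and that of Map1lc3b was 14.1% ± 0.414 and 14.2% ± 0.193. Gabarapl1 made up 5.85% ± 0.148 in wild type and 7.08% ± 0.115 in knockout cells, and Gabarapl2 11.1% ± 0.424 and 9.62% ± 0.429. Only the shares of Map1lc3b overlapped between genotypes. Being ratios within libraries, the shares do not move with the scaling.

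Cargo receptors went separate ways. Optn, the gene of optineurin, a receptor for bacteria and damaged mitochondria that also takes part in innate immune signalling, measured 8.06, 8.60 and 8.11 CPM in the wild type libraries and 13.7, 12.7 and 12.5 CPM in the knockout libraries. Each knockout library exceeded each wild type library, and Optn rose by 0.65 ± 0.10 log2 units (edgeR adjusted p = 6.48e-05). Nbr1, a receptor for ubiquitinated aggregates and peroxisomes, fell by 0.34 ± 0.05, from 243 ± 8.01 to 192 ± 1.18 CPM. Sqstm1, which encodes p62 and is itself degraded by autophagy, was the most abundant gene of the 3 and measured 795, 729 and 779.5 CPM in the wild type libraries and 779.7, 840.0 and 833 CPM in the knockout libraries. The ranges overlapped and Sqstm1 was not called (0.09 ± 0.06), though it was with library totals (0.29).

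**Figure D2:**
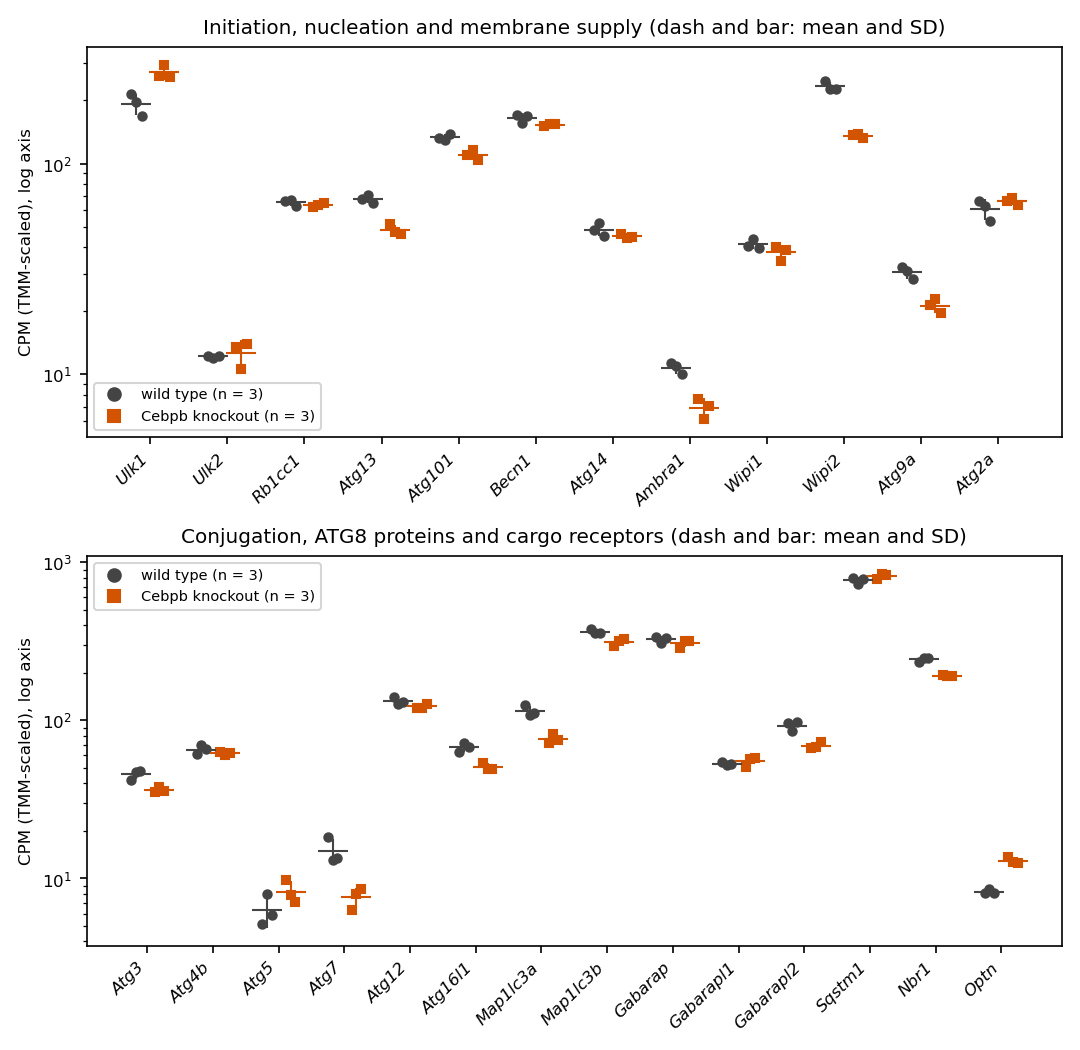
CPM of 26 autophagy genes (all but Pik3c3, Uvrag and Atg10) in each library on a log axis, wild type as circles and knockout as squares, with the mean and SD of each group. Ulk1 and Optn lie higher in knockout cells, Wipi2, Atg7 and Map1lc3a lower, and Sqstm1, Gabarap and Becn1 lie close together.

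The TFEB family showed no call except in its scarce member Mitf. Tfe3 was the main transcript of the family, at 23.7 ± 0.861 CPM per kb in wild type and 24.5 ± 0.807 in knockout cells, or 96.4% ± 0.634 and 97.6% ± 0.321 of the family's summed level. It measured 88.2, 86.8 and 82.3 CPM in the wild type libraries and 86.8, 92.0 and 87.1 CPM in the knockout libraries, with overlap, and was not called (0.05 ± 0.06), though it was with library totals (0.25). Tfeb averaged 1.05 ± 0.270 CPM in wild type against 1.20 ± 0.0893 in knockout cells and was not called (0.19 ± 0.24). Mitf measured 2.93, 4.04 and 2.80 CPM in the wild type libraries and 1.85, 1.19 and 1.68 CPM in the knockout libraries, a fall of 1.05 ± 0.21 log2 units (edgeR adjusted p = 4.58e-04). MITF is also the lineage factor of melanocytes, and the pigment cell markers summed to 0.867 times their wild type level in knockout cells. Per 1000 CPM of those markers, Mitf was 3.67, 5.69 and 3.62 CPM in wild type and 2.82, 1.69 and 2.70 CPM in knockout libraries. That sum is mostly Pmel, Tyrp1 and Dct, whose log2 fold changes were -0.17, -0.27 and -0.13 (Dct not called). Of the scarcer markers, Kit (-0.78), Tyr (-0.73) and Slc45a2 (-0.59) fell by amounts nearer to that of Mitf. The other scarcer markers lay farther from it, at -0.35 (Ednrb), -0.28 (Sox10), -0.23 (Slc24a5), -0.16 (Mlana) and 0.31 (Gpr143). Among these only Sox10 was called. The part of pigment cells in the fall of Mitf was not tested. The counts do not separate the isoforms of Mitf.

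The highest levels per kb among the 41 were those of lysosomal genes. Per kb of exon, the order in wild type was Ctsd (689 ± 29.7 CPM per kb), Lamp1 (571 ± 25.7), Ctsl (535 ± 37.8), Ctsb (288 ± 11.3) and Sqstm1 (272 ± 12.2), in which Lamp1 and Ctsl, and Ctsb and Sqstm1, differed by about their spread. In knockout cells Sqstm1 (289.7 ± 11.7 CPM per kb) came next after Lamp1, above Ctsl (234 ± 14.1) and Ctsb (167 ± 8.97). Tfeb, Atg10 and Mitf were lowest in both genotypes.

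Ctsl (ENSMUSG00000021477), the gene of cathepsin L, a cysteine protease, measured 3369, 3042 and 3493 CPM in the wild type libraries and 1392, 1393 and 1543 CPM in the knockout libraries. It fell by 1.19 ± 0.06 log2 units (edgeR adjusted p = 3.65e-10), and the wild type libraries lay far above every knockout library. Ctsb, which encodes the cysteine protease cathepsin B, measured 1423, 1315 and 1366 CPM in the wild type libraries and 743, 814 and 819 CPM in the knockout libraries. It fell by 0.79 ± 0.06. Part of the Ctsb exons (16.3%) lies opposite exons of the sterol synthesis gene Fdft1, which held 137053 counts over all libraries. Without a stated strand setting, the value of Ctsb is therefore less certain. Exons of Ctsd (31.5%, same strand), Ctsl (28.2%, opposite strand) and Sqstm1 (20.55%, opposite strand) also overlap those of other genes. Those other genes held 0, 23 and 843 counts over all libraries, and the levels of Ctsd, Ctsl and Sqstm1 are likewise less certain. Ctsd, the gene of the aspartic protease cathepsin D, measured 1524, 1474 and 1398 CPM in the wild type libraries and 999, 1067 and 1032 CPM in the knockout libraries. Groups did not overlap and Ctsd fell by 0.51 ± 0.06 (edgeR adjusted p = 1.35e-06).

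Glycan-cleaving enzymes and cathepsin Z moved in both directions. Hexa, the alpha subunit of the hexosaminidase that is missing in Tay-Sachs disease, measured 67.4, 59.4 and 60.1 CPM in the wild type libraries and 36.7, 38.0 and 37.1 CPM in the knockout libraries, and fell by 0.74 ± 0.07. Ctsz, a carboxypeptidase of the cathepsin family, measured 40.9, 38.8 and 40.1 CPM in the wild type libraries and 78.2, 79.8 and 82.7 CPM in the knockout libraries. All 3 knockout libraries lay well above the wild type range, and Ctsz rose by 1.01 ± 0.06 log2 units (edgeR adjusted p = 2.17e-09). The ratio of Ctsl to Ctsz, each per kb, was 19.3 ± 1.01 in wild type and 4.20 ± 0.145 in knockout libraries, a comparison within libraries that scaling does not touch. Neu1, a sialidase, measured 38.0, 41.7 and 37.1 CPM in the wild type libraries and 61.4, 61.5 and 59.1 CPM in the knockout libraries, without overlap, and rose by 0.64 ± 0.07 log2 units. Gla, the X-linked alpha-galactosidase of Fabry disease, overlapped (0.04 ± 0.10).

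Summed CPM of the 7 hydrolases was 6293 ± 266 in wild type and 3462 ± 131 in knockout cells, and without Ctsl it was 2991 ± 102 and 2019 ± 73.3. Ctsl thus made up 52.4% ± 1.87 of the wild type sum and 41.7% ± 1.42 of the knockout sum. The summed markers of Langerhans cells and macrophages, at most 8.10 CPM in any library, stood in knockout cells at 0.489 times their wild type level, and the hydrolase sum at 0.550 times. Csf1r (log2 fold change -0.46) was the largest part of that marker sum. Scarcer markers called lower fell further, with Cx3cr1 at -1.25, C1qa at -3.64, Lyz2 at -4.59 and Mrc1 at -5.93. Cd74 was higher (1.13) and Fcer1g was not called (-0.98). The part of Langerhans cells and macrophages in the hydrolase levels was not tested. Lamp1 and Lamp2, the glycoproteins that line the lysosomal membrane, fell by less than Ctsl, Ctsb and Ctsd, a difference that was not itself tested. Lamp1 measured 1332, 1268 and 1218 CPM in the wild type libraries and 987, 1027 and 1091 CPM in the knockout libraries, a fall of 0.30 ± 0.06 that was -0.10 and not called with library totals. Lamp2 fell by 0.19 ± 0.06, from 384 ± 5.11 to 336 ± 17.9 CPM; this was 0.01 with totals, and it also missed the threshold without knockout replicate 4 (-0.16, edgeR adjusted p = 0.0564).

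**Figure D3:**
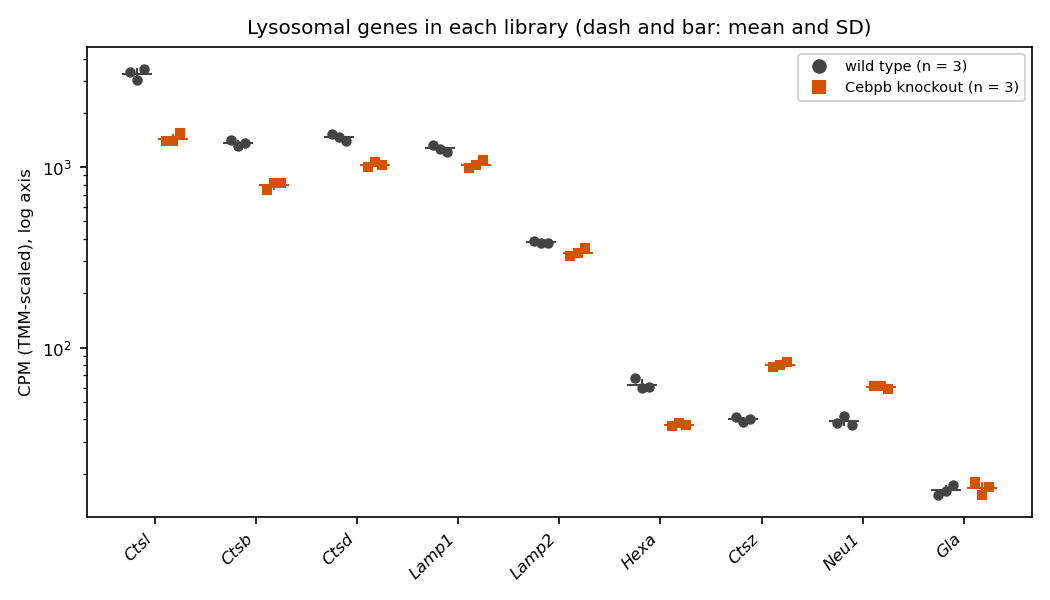
CPM of the 9 lysosomal genes in each library on a log axis, wild type as circles and knockout as squares, with the mean and SD of each group. Ctsl, Ctsb, Ctsd and Hexa lie lower and Ctsz and Neu1 higher in knockout cells, with no overlap, while Gla overlaps.

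RefSeq promoter windows (build GRCm38.p6) were matched by symbol for 34 of the 41 genes, and the 250 bases before each start were searched on both strands. The E-box CACGTG, the core of the element bound by the TFEB family, was found in 7 of the 34 genes (20.6%), against 6.86% of 27025 genes with a window. They are Atg3, Atg5, Atg7, Ctsd, Ctsl, Gla and Lamp1, of which 5 were called lower and 2 were not called. The shares called lower were 46.3% of the 41 genes and 23.7% of all genes tested. With library totals, Atg3 and Lamp1 were not called and Atg5 was called higher. The longer form TCACGTGA, which contains the E-box, was found in Atg3, Ctsd and Gla (8.82%, against 0.907%). A loose form of the C/EBP half-site pair, TTGCNNAA, was found in Atg7, Atg9a, Atg14, Ctsl and Mitf (14.7%, against 10.8%), 4 of them called lower, and the palindrome TTGCGCAA in none of the 34 (0.185% of all genes). Such matches describe the letters of these windows only. In this window no E-box was found for Ulk1, Optn, Ctsz or Neu1, which rose. None was found either for genes that fell such as Hexa, Wipi2, Atg9a, Ambra1 and Mitf. Rb1cc1, Becn1, Pik3c3, Atg12, Atg16l1, Map1lc3a and Ctsb had no window and were not searched. Of these, Atg16l1, Map1lc3a and Ctsb were called lower.

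The stretches that hold the motifs in Lamp1, Ctsd, Atg3 and Gla are shown because they carry E-boxes, and those of Atg7 and Ctsl because these genes hold both motifs within their 250 bases. Each reads 5′ to 3′ along the gene, and capitals mark CACGTG, or TTGCNNAA on either strand. Lamp1 lies at chr8:13159091-13159160 (plus strand), Ctsd at chr7:142387898-142387957 (minus), Atg3 at chr16:45158714-45158773 (plus), Gla at chrX:134601186-134601245 (minus), Atg7 at chr6:114670926-114670985 (plus) and Ctsl at chr13:64370601-64370660 (minus).
Lamp1: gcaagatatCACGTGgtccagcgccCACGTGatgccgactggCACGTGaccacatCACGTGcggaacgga
Ctsd: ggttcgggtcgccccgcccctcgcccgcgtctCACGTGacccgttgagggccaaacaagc
Atg3: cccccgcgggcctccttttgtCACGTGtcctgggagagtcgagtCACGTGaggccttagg
Gla: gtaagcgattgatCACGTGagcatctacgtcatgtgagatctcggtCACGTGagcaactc
Atg7: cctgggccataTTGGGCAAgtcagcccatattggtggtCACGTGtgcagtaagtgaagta
Ctsl: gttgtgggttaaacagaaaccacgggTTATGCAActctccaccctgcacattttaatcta
The Lamp1 stretch, the 70 bases up to its start, holds 4 E-boxes, and that of Gla holds 2 in the longer form. A second E-box of Ctsd, 245 bases before the start, the E-box of Ctsl at 236 bases and another TTGCNNAA of Atg7 at 46 bases lie outside these stretches. Ctsd fell while Gla, which holds the same longer form, was not called. Lamp1 fell with TMM scaling but was not called with library totals. The part of the E-box in these levels was not tested.

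A wider list of 220 genes of the same pathways was compared, of which 218 were in the table and 209 were tested. The test called 60 of them higher (28.7%) and 76 lower (36.4%), and the median log2 fold change of the 209 was -0.04. Over all genes these shares were 24.8% and 23.7%, so the share called higher was near that of all genes. With library totals 94 were called higher and 33 lower (median 0.16), a shift that scaling gives every gene, and the shares over all genes were then 36.7% and 13.9%. The counts of the lists that follow stand beside these shares.

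The vacuolar proton pump, which acidifies the lysosome, had 13 of 21 tested subunit genes lower and 5 higher, or 7 and 7 with library totals. Atp6v1c2, a subunit isoform, fell by 2.45 ± 0.08 log2 units, from 44.8 ± 1.90 to 8.20 ± 0.0955 CPM, and Atp6v1b2, the common B subunit, by 1.07 ± 0.06, from 599 ± 30.1 to 286 ± 8.01 CPM. Atp6v0e2 rose from 4.84 ± 0.596 to 18.8 ± 0.672 CPM (1.96 ± 0.11) and Tcirg1, an a-subunit isoform known from osteoclasts, by 0.87 ± 0.08.

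Cargo receptors outside the 41 had 13 of 22 genes lower and 2 higher (median -0.33), or 8 and 6 with library totals (median -0.13). Bnip3l, also called NIX, a receptor that removes mitochondria, fell by 1.12 ± 0.07, from 235 ± 17.8 to 108 ± 10.2 CPM, and its relative Bnip3 by 3.22. The small rises of Retreg3 (0.18 ± 0.06) and Calcoco1 (0.16 ± 0.06) were lost when single libraries were left out, Retreg3 without wild type replicate 1 or 3 or knockout replicate 4 or 5, and Calcoco1 without wild type replicate 2 or 3 or any knockout replicate. Among the fusion genes, 7 of 17 fell and 2 rose, or 2 and 6 with library totals. Rab7, the GTPase of late endosomes and lysosomes, fell from 416 ± 5.71 to 288 ± 15.8 CPM (-0.53 ± 0.06), and of the paralogs that move lysosomes along microtubules, Arl8b fell by 0.41 ± 0.06 and Arl8a rose by 0.48 ± 0.06. Stx7, a SNARE of late endosomes, was called higher by 0.20 ± 0.07, although its libraries overlapped and the call was lost without wild type replicate 1 or 3 or knockout replicate 4 or 6.

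More of the other hydrolase genes rose than fell, with 19 of 43 higher and 11 lower (median 0.15), or 26 and 5 with library totals (median 0.35). Ids, an enzyme of heparan and dermatan sulfate breakdown, rose from 12.0 ± 0.0808 to 26.3 ± 2.30 CPM (1.14 ± 0.09), and Ctsw, a cathepsin known from cytotoxic lymphocytes, rose from 0.464 ± 0.0780 to 4.25 ± 0.495 CPM (3.20 ± 0.20) while the 5 T cell markers summed to 1.43 to 3.17 CPM in wild type and 1.47 to 1.92 CPM in knockout libraries, a sum that is mostly Thy1 (called lower, -0.74). Within it Trdc, a T cell receptor constant region gene, rose from 0.0293 ± 0.0343 to 0.438 ± 0.132 CPM, while Cd3d and Cd3e had 0 counts in all 6 libraries. The part of T cells in the rise of Ctsw was not tested. Psap, the precursor of the saposins that assist sphingolipid hydrolysis, fell by 1.22 ± 0.05, from 2147 ± 68.0 to 922 ± 25.4 CPM, and Ctsa, which protects the sialidase NEU1, fell by 0.68 ± 0.05 where Neu1 itself rose. The summed CPM of this list was 4628 ± 150 in wild type and 3400.1 ± 114 in knockout cells (SD, n = 3 each). Nearly all of that difference was the fall of Psap, and the sum of the other genes differed little between genotypes.

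Other lysosomal membrane genes had 7 of 30 higher and 9 lower, or 15 and 5 with library totals. Slc15a3, a transporter of peptides and histidine on endolysosomes, fell by 3.58 ± 0.10 log2 units, from 39.6 ± 2.77 to 3.31 ± 0.0974 CPM, and its paralog Slc15a4 by 0.76 ± 0.07. Npc1, which exports cholesterol from the lysosome, rose by 0.47 ± 0.07 and the sialic acid exporter Slc17a5 by 0.68 ± 0.09. Of 9 genes that sort hydrolases to the lysosome, 3 rose and 4 fell, or 3 and 0 with library totals. Igf2r, the large mannose 6-phosphate receptor, rose from 246 ± 8.28 to 339 ± 14.3 CPM (0.46 ± 0.06) and the adaptor Gga2 by 0.49 ± 0.08. Gnptg, a subunit of the enzyme that makes the sorting tag, fell by 0.39 ± 0.08, and Gga3 by 0.28 ± 0.07, and neither was called with totals (-0.19 and -0.09).

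Upstream, 11 of 37 genes of mTORC1 and AMPK signalling were called higher and 11 lower (29.7% each), near the 24.8% and 23.7% of all genes, or 15 and 3 with library totals. Prkab2, a regulatory subunit of AMPK, fell by 1.61 ± 0.09, from 23.9 ± 0.664 to 7.81 ± 0.418 CPM, and the folliculin partner Fnip2 by 1.31 ± 0.09. Castor1, an arginine sensor that restrains mTORC1, rose from 12.6 ± 1.03 to 26.8 ± 1.25 CPM (1.09 ± 0.09), and Ddit4, a stress-induced mTORC1 inhibitor, rose from 268 ± 1.71 to 440.5 ± 30.8 CPM. Of 22 further core autophagy genes 8 rose and 6 fell, or 11 and 2 with totals. Tecpr1, which binds ATG5 on lysosomal membranes, rose from 25.0 ± 1.28 to 55.7 ± 0.675 CPM (1.15 ± 0.07), and Zfyve1, whose product DFCP1 marks the site of autophagosome birth, by 0.92 ± 0.07. Epg5, a tether for fusion with lysosomes, fell by 1.02 ± 0.09 and the scramblase gene Tmem41b by 0.49 ± 0.06. Of 8 other regulators 3 rose and 2 fell, or 5 and 1 with totals. Usf1, an E-box binding factor, rose by 0.35 ± 0.06, Zkscan3, a repressor of autophagy genes, by 0.23 ± 0.06, and Foxo3, a FOXO factor that activates autophagy genes, fell by 0.47 ± 0.06.

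**Figure D4:**
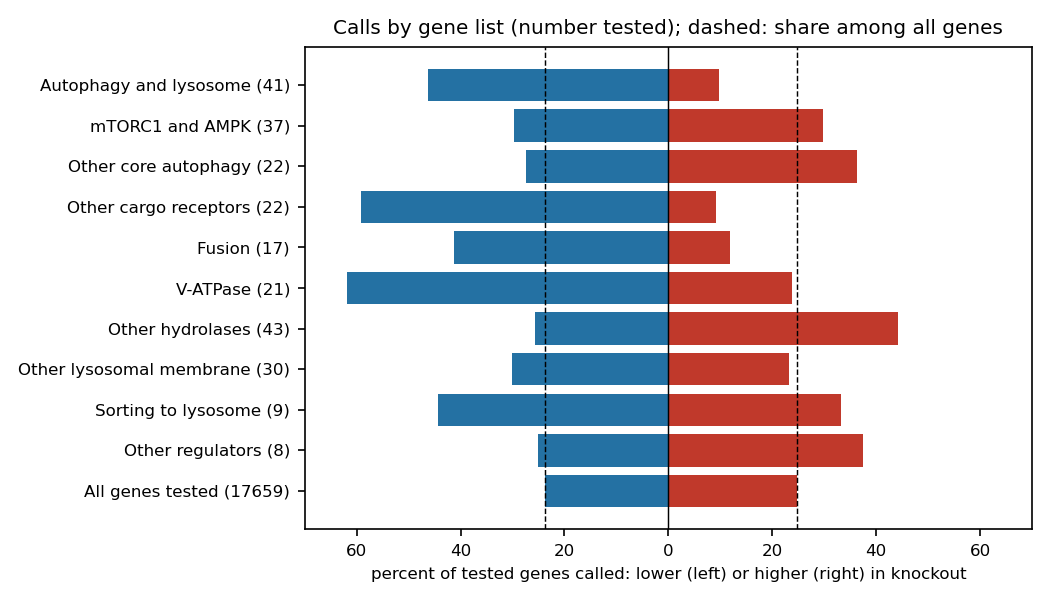
Percent of tested genes called lower (bars to the left) or higher (bars to the right) in knockout cells for the 41 genes, each list of further pathway genes and all genes, with the number tested in brackets and TMM scaling; dashed lines mark 23.7% and 24.8%, the shares among all genes. The V-ATPase and other cargo receptor lists extend farthest to the left, and the other hydrolases farthest to the right.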

How the data were processed

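The authors deposited 1 table of unnormalized whole-number counts per gene for 6 libraries. The submitters' processing notes name STAR, HTSeq, FastQC and DESeq2 and the builds mm39 and GRCm39. Not given in the sources used here: their versions, the annotation release, the strand setting and the handling of reads that match several genes. Values of genes with close copies, ATG8 genes among them, are therefore less certain. Symbols were matched by identifier for 52083 of 55416 genes; the 3333 others held 0.369% to 0.546% of counts and stayed in. Exon bases are shared with another gene in 14 of the 41 members (over 5% of their exons in 8), so these are less certain. Among them are Atg9a (41.8%, same strand) and Becn1 (29.56%, opposite strand).

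Counts were tested with edgeR 4.0.16 (R 4.3.3): filterByExpr at 10 counts (17659 genes), TMM, robust quasi-likelihood, genotype as the only factor, Benjamini-Hochberg adjustment over all tested genes, threshold 0.05. The script was tested on simulated data. Standard errors are the fold change over the square root of F. CPM are TMM-scaled, with SDs over 3 libraries; CPM per kb use exon unions of GENCODE M21 (GRCm38), from which no positions are given. Alternatives were RLE factors, library totals, no filter, a mean of 1 CPM, DESeq2 1.42.0, limma 3.58.1 voom, no X and Y genes, thinning to the smallest total and leaving out each library. Every member could be named; other pathway genes were the 2 with the smallest p called higher and the 2 called lower per list, at a mean of 2 CPM or more, of which 1 is not reported here. Members and lists were chosen with earlier results of these data known. No label ties the libraries to different animals or dishes, and p-values reflect only how these samples vary, possibly for technical reasons. Chi-square per degree of freedom was 19.7 to 46.9 within and 548.1 to 605.7 between genotypes, so no library repeated another.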

Additional observations from a re-analysis of the deposited data

How the results depend on the processing

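No paired analysis was possible because the replicate numbers of the genotypes (1 to 3 and 4 to 6) are not shared. With library totals, the calls over all genes were 6478 higher and 2452 lower (72.5% higher, against 51.1% with TMM), those of the 41 genes 10 higher and 14 lower, and those of the wider list 94 and 33. In the other alternatives, the genes gave 4 or 5 higher and 18 or 19 lower; 38 of the 41 were tested without X and Y genes (which drops Lamp2, otherwise called lower) and 40 at a minimum mean of 1 CPM. With totals the log2 fold changes of Rb1cc1 (0.16), Becn1 (0.092), Atg14 (0.092), Wipi1 (0.071), Atg4b (0.12), Atg12 (0.084), Gabarap (0.11) and Lamp2 (0.0069) turned positive, none of them called. Uncalled genes near 0 also changed sign. Uvrag did so with RLE factors (-0.0019), DESeq2 (-0.0019), voom (-0.013) and thinning (-0.045). When single libraries were left out, Uvrag ranged from -0.090 to 0.16, Ulk2 from -0.013 (without knockout replicate 6) to 0.18, Pik3c3 from -0.059 (without wild type replicate 1) to 0.24, Tfeb from -0.014 (without wild type replicate 1) to 0.31 and Gla from -0.012 (without knockout replicate 4) to 0.10. Apart from the shift that scaling itself makes, the cause was not tested. With 81256192 or more counts per library, counting error bears most on the scarcest genes, and Atg10 and Tfeb had the largest standard errors of the 41.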
